A study of Mus musculus with 10 samples.

Results

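The insulin-like growth factor axis was followed here through 10 genes in the left atrium of adult mice: the ligands Igf1 and Igf2, the receptors Igf1r and Igf2r, and the binding proteins Igfbp2, Igfbp3, Igfbp4, Igfbp5, Igfbp6 and Igfbp7. The rule took them by name as ligands, receptors and binding proteins of this family, although earlier results of these data were known when they were chosen. All 10 were among the 23337 genes of the count table, and 9 passed the filter on low counts that left 13191 genes for testing. RNA-seq libraries came from 4 control and 6 Tbx5 knockout mice of a mixed C57B6 and 129 background. Control mice were labelled wild type for Tbx5 (Tbx5 +/+), and knockout mice Tbx5 null (Tbx5-/-). TBX5 is a cardiac transcription factor of the T-box family, and exon 3 of its gene was removed by a tamoxifen-inducible Cre at R26, a locus active in nearly all cell types. How far the deletion went in any cell type was not measured here. The protocol describes 0.167 mg of tamoxifen a day for 3 days and tissue collection 1 week later. Whether control mice were also injected, or carried the Cre allele, is not stated there. The mice were 8 to 10 weeks old by their labels but 6 to 8 weeks old by the protocol. The labels name a separate animal for each library.

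IGF1 and IGF2 are small secreted hormones related to insulin. Both bind the tyrosine kinase receptor encoded by Igf1r, which signals through insulin receptor substrates to PI3 kinase, AKT and mTOR, a route known for cardiac growth and survival. The protein encoded by Igf2r, which is also the large mannose 6-phosphate receptor, takes up IGF2 for breakdown in lysosomes and sorts lysosomal enzymes. Binding proteins hold the hormones in the extracellular space and are cut by dedicated proteases, and IGFBP7 differs from the others in its weak affinity for the hormones.

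Total counts were 5701670 to 7697556 in control and 5789632 to 7355782 in knockout libraries. Libraries of the same group correlated at 0.964 to 0.986 (Pearson, log2 CPM, the count per total count on a log scale), and libraries of different groups at 0.888 to 0.949. The whole-gene count of Tbx5 was higher in the libraries labelled knockout, by 1.03 ± 0.14 (SE) on the log2 scale (adjusted p = 4.78e-05, edgeR's quasi-likelihood test). That count includes exons outside the deleted part, so it does not check the deletion. Labelled sex went against the sex-linked genes in all 4 controls. Both controls labelled male, M1 and M2, had 5767 and 6201 Xist reads and 0 reads of the Y-linked genes Ddx3y, Eif2s3y, Kdm5d and Uty. Both controls labelled female, F1 and F2, had 2383 and 2106 Y-linked reads, beside 119 and 9 Xist reads. In all 6 knockout libraries the reads fitted the labels, with 153 Xist reads in M3. A result split by labelled sex therefore sets Y-positive controls against Xist-positive knockouts, or the reverse.

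The upstream sequences of the binding protein genes with the largest rise and the largest fall are shown, because these genes lay close together in level in controls and far apart in knockouts. Each is the stretch of 250 bases before the RefSeq start on GRCm38.p6, read 5′ to 3′ on the strand of the gene, with every CG in capitals. Igfbp7 lies at chr5:77408046-77408295 on the minus strand, Igfbp6 at chr15:102143936-102144185 on the plus strand, and neither stretch overlaps an exon of GENCODE M21.
Igfbp7: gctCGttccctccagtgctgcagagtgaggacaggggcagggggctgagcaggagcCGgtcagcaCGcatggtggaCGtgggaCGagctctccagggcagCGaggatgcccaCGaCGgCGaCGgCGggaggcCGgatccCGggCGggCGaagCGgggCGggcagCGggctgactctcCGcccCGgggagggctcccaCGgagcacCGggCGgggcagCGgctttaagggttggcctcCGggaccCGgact
Igfbp6: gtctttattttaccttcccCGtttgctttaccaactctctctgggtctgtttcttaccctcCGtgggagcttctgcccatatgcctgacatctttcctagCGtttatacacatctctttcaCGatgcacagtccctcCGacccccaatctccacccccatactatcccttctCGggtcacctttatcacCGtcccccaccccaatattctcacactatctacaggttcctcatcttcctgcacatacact
The stretch before Igfbp7 held 26 CG and that before Igfbp6 held 7, against a median of 6 (quartiles 2 and 16) over 32851 such stretches. CG counts were 5 before Igf1 and 10 before Igfbp5. All 250 bases of the Igf1 stretch and 19 bases of the Igfbp5 stretch lie in annotated exons. High counts were not particular to Igfbp7. Genes that did not pass the genotype test below held 42 (Igf1r), 32 (Igfbp3), 27 (Igf2r) and 22 (Igfbp4), and 1 to 22 in the windows of Igf2. Igfbp2, which was not tested, held 14 and 11. The T-box core AGGTGT, searched on both strands in the 300 bases from 250 before to 50 after each start, was in 0 of the 14 windows of the 10 genes and in 13.7% of all windows. CG and TATAAA were counted after that search had found nothing. TATAAA stood before Igfbp4 alone among these genes, and in 7.59% of all stretches of 250 bases. These are matches of letters in short windows and say nothing of binding.

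Of the 9 tested genes, 2 were higher and 2 lower in the knockout, and 5 did not pass edgeR's quasi-likelihood test at a Benjamini-Hochberg adjusted p of 0.05. Igf1 and Igfbp7 rose, and Igfbp5 and Igfbp6 fell. The 4 called genes are 44.4% of those tested, where 42.6% of all tested genes were called. In each direction the share was 22.2%, against 20.8% of all genes called higher and 21.8% called lower. In 3 of the 9 (33.3%) no knockout library overlapped a control library, against 31.3% of all tested genes. With scaling to library size alone the median over all genes moved to 0.14, the calls over all genes split into 3942 higher and 2020 lower in place of 2741 and 2881, and the called members were Igf1, Igfbp4 and Igfbp7 (higher) and Igfbp6 (lower), with Igfbp4 gained and Igfbp5 lost. All these shares lie close to those of all genes, so what follows is about single genes and not about the set. The median log2 fold change of the 9 was -0.02, against -0.00 over all genes, and the median absolute value was 0.21 against 0.32.

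**Figure D1:**
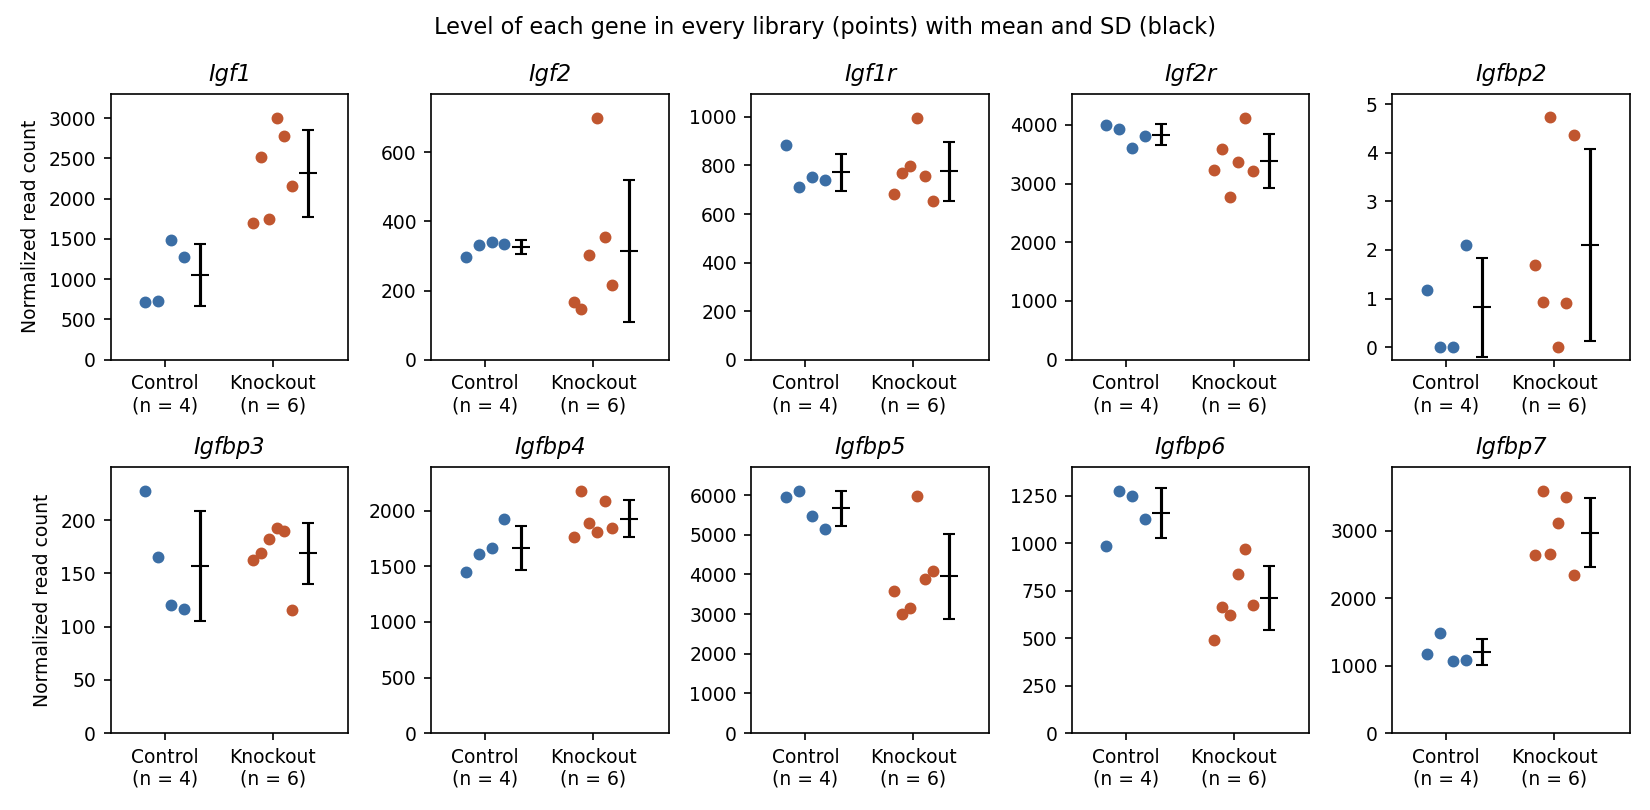
Normalized read count of each of the 10 genes in every library, with the group mean and SD in black, 4 control and 6 knockout libraries. The Igf1, Igfbp6 and Igfbp7 points of the groups do not overlap, and 1 Igfbp5 knockout point, M1 at 5985, lies among the controls.

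Igf1, on chromosome 10 (87858265 to 87937042, plus strand, mm10, as all gene positions here), was the ligand that rose. Control libraries M1, M2, F1 and F2 held 723, 727, 1483 and 1278 normalized counts, the count divided by a size factor of the library. Knockout libraries ran from 1695 (F1) through a median of 2335 to 3007 (M1). Every knockout library lay above every control, but the controls themselves formed a low pair and a high pair. Group means were 1053 ± 388 (SD, n = 4) and 2317 ± 542 (SD, n = 6), a 2.16-fold rise (log2 1.11 ± 0.23 SE, edgeR adjusted p = 0.00141). With labelled-female libraries alone the log2 value was 0.50, and with labelled-male libraries alone 1.86, and both passed the test. In bulk tissue, a change in the number of cells of a type and a change in RNA per cell cannot be told apart.

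Igf2, an imprinted gene on chromosome 7 (142650766 to 142666816, minus strand) that is expressed mainly before birth, did not pass the test. The controls held 296, 331, 341 and 334 normalized counts. Knockout libraries ran from 148 (F2) through a median of 259 to 700 (M1). Both the lowest and the highest libraries were knockouts, and the controls sat between them. Means were 325 ± 20.3 (SD, n = 4) and 315 ± 205 (SD, n = 6), with a coefficient of variation of 6.24% in controls and 65.1% in knockouts, or 37.5% in the 5 knockouts other than M1. Without M1 the log2 fold change was -0.46 (edgeR adjusted p = 0.0907). With all libraries it was -0.08 ± 0.34 (SE, edgeR adjusted p = 0.876), and the spread itself was not tested. In labelled-female libraries alone it was -0.74 (adjusted p = 0.0268), and in labelled-male libraries alone 0.43 (adjusted p = 0.510). Igf2 shares 3596 exonic bases with the gene model Gm49394 on the same strand, a name that is not among the genes of the count table. How the counting treated reads of overlapping genes is not given in the sources used here.

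Neither receptor passed the test. Igf1r, the signalling receptor (chromosome 7, 67952827 to 68233668, plus strand), had 883, 713, 752 and 742 normalized counts in the controls and 652 to 997, with a median of 762, in the knockouts. The groups overlapped almost fully, and the log2 fold change was -0.02 ± 0.11 (SE, edgeR adjusted p = 0.917). With offsets for exon length and GC content, an alternative chosen after seeing the data, Igf1r was 0.27 higher (adjusted p = 0.0260).
Igf2r, the uptake receptor (chromosome 17, 12682406 to 12769664, minus strand), had 4002, 3933, 3601 and 3805 normalized counts in the controls. Knockout values ran from 2765 (F3) through a median of 3298 to 4123 (M2), so that 5 of 6 knockout libraries were below all controls and M2 was above them. The log2 fold change was -0.21 ± 0.10 (SE, edgeR adjusted p = 0.126), and without knockout M2 it was -0.26 (adjusted p = 0.0422).

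Igfbp7 encodes a secreted protein of vessels and matrix that is made by endothelial and stromal cells. It lies on chromosome 5 (77349240 to 77408041, minus strand). Controls M1, M2, F1 and F2 held 1170, 1485, 1064 and 1086 normalized counts. Knockouts held 2649, 3589 and 2656 in F1, F2 and F3, and 3116, 3503 and 2346 in M1, M2 and M3. All knockout libraries lay above all controls, with a gap wider than the range of the controls. Means were 1201 ± 195 (SD, n = 4) and 2977 ± 506 (SD, n = 6), a 2.43-fold rise (log2 1.28 ± 0.14 SE, edgeR adjusted p = 1.17e-05). An overlap of 85 exonic bases with Polr2b on the opposite strand is annotated, and the strand setting of the counting is not given in the sources used here.

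Igfbp6, whose protein prefers IGF2 over IGF1, lies on chromosome 15 (102144362 to 102149511, plus strand). The controls M1, M2, F1 and F2 held 986, 1274, 1247 and 1129 normalized counts. Knockout values were 492, 664 and 623 in F1, F2 and F3 and 836, 969 and 677 in M1, M2 and M3. The groups did not overlap, although knockout M2 and control M1 lay close to each other. Igfbp6 fell by 0.73 ± 0.15 (SE) on the log2 scale (1.66-fold lower, edgeR adjusted p = 0.00152). In labelled-male libraries alone the log2 value was -0.46 (adjusted p = 0.148).

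Igfbp5, the most conserved of the binding proteins and one that also attaches to matrix, lies on chromosome 1 (72857932 to 72874884, minus strand), 5457 bases from Igfbp2, with the genes running towards each other. Controls M1, M2, F1 and F2 held 5962, 6099, 5484 and 5140 normalized counts. In the knockouts F1, F2 and F3 held 3572, 3014 and 3151, and M1, M2 and M3 held 5985, 3898 and 4099. Knockout M1 lay at the level of the controls and the other 5 below all of them. Igfbp5 fell by 0.54 ± 0.16 (SE) on the log2 scale (1.46-fold lower, edgeR adjusted p = 0.0148), from 5672 ± 442 (SD, n = 4) to 3953 ± 1079 (SD, n = 6). Without control M1 the adjusted p was 0.0515, with scaling to library size alone 0.0728, and in labelled-male libraries alone 0.269.

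The other binding proteins did not pass. Igfbp4, which is cut by the protease PAPP-A (chromosome 11, 99041244 to 99054392, plus strand), had 1450, 1614, 1669 and 1923 normalized counts in the controls and 1766 to 2175, with a median of 1866, in the knockouts (log2 0.19 ± 0.10 SE, edgeR adjusted p = 0.136). Its log2 value was 0.29 without control F2 (adjusted p = 0.0385) and 0.33 with scaling to library size alone (adjusted p = 0.0134). Igfbp3, the main carrier of these hormones in blood (chromosome 11, 7206086 to 7213923, minus strand), had 227, 165, 120 and 116 normalized counts in the controls and 116 to 193, with a median of 176, in the knockouts. Its groups overlapped (log2 0.08 ± 0.19 SE, edgeR adjusted p = 0.758), while labelled-female libraries alone gave 0.51 (adjusted p = 0.0124) and labelled-male ones -0.24. Igfbp2 (chromosome 1, 72824503 to 72852474, plus strand) had 0 to 5 raw reads per library and 16 in all, so that a difference was not detectable at this depth.

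**Figure D2:**
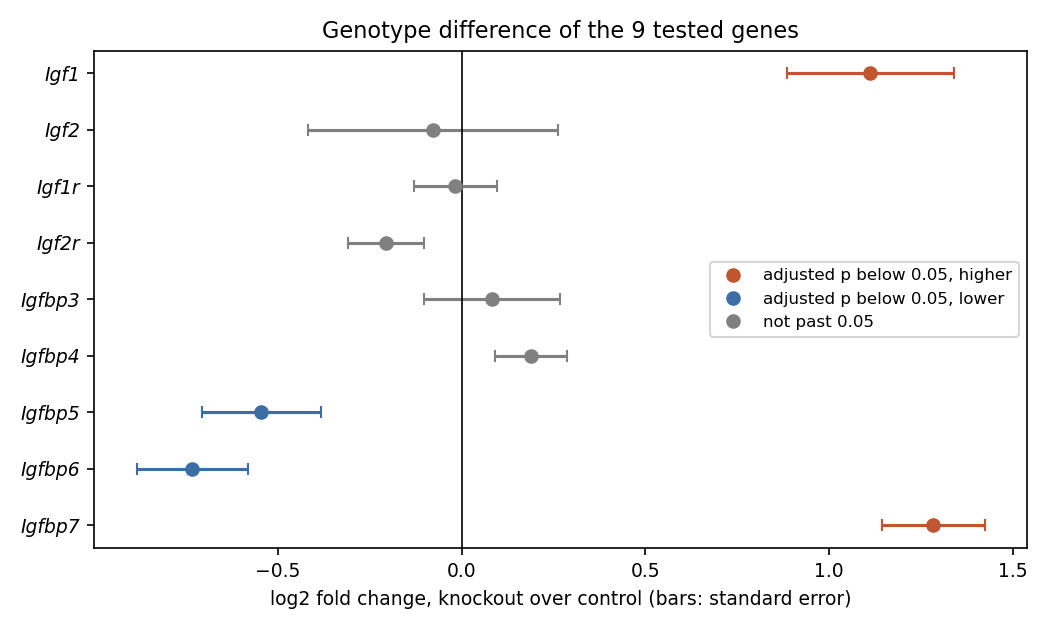
Log2 fold change of the 9 tested genes, knockout over control, with bars of 1 standard error from edgeR. Igfbp7 at 1.28 and Igf1 at 1.11 lie to the right, Igfbp6 at -0.73 and Igfbp5 at -0.54 to the left, and the 5 grey genes did not pass an adjusted p of 0.05.

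In the authors' deposited table, made with DESeq2, the log2 fold changes were 1.28 for Igfbp7 (adjusted p = 1.09e-17), 1.08 for Igf1 (3.99e-06), -0.68 for Igfbp6 (0.000147) and -0.50 for Igfbp5 (0.00830). The authors' deposited table also lists Igfbp4 at 0.21 with an adjusted p of 0.0826, and Igfbp2 at 0.52 with an adjusted p of 0.408.

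To set the genes beside each other, normalized counts were divided by the annotated exon length in kb (the union over all transcripts). The order rests on this length, which need not be that of the transcript present. Before the division Igfbp5 had the highest mean in controls (5672) and in knockouts (3953), where Igfbp7 had 1201 and 2977. In controls Igfbp6 (1042 per kb), Igfbp7 (993 per kb) and Igfbp5 (944 per kb) were the most abundant, and the ranges of their libraries overlapped. Igf2r (412 per kb) and Igfbp4 (377 per kb) came next and also overlapped. Igf1 followed at 106 per kb, above Igf2 at 56.9 per kb. The control ranges of Igf2, Igfbp3 (50.2 per kb) and Igf1r (46.0 per kb) overlapped, and Igfbp2 was last at 0.44 per kb. In knockouts Igfbp7 stood alone at 2462 per kb, its lowest library (1941 per kb) being above the highest of Igfbp5 (996 per kb). Igfbp5 (658 per kb) and Igfbp6 (639 per kb) overlapped, as did Igfbp4 (437 per kb) and Igf2r (364 per kb). Igf1 at 234 per kb had the sixth place in both groups, and the order of Igf2, Igfbp3, Igf1r and Igfbp2 was that of the controls.

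The make-up of the binding protein transcripts was therefore different, as a description of the same counts and exon lengths. Igfbp7 made up 29.0% ± 2.55 (SD, n = 4) of the summed level per kb of the 6 binding proteins in controls and 57.8% ± 4.24 (SD, n = 6) in knockouts. Its share was 26.4% to 32.3% over the controls and 52.6% to 64.3% over the knockouts. Igfbp6 went from 30.6% ± 2.65 to 14.9% ± 2.13 and Igfbp5 from 27.8% ± 1.92 to 15.6% ± 3.66, while Igfbp4 held 11.1% ± 1.71 and 10.4% ± 1.11. The summed level was 3407 ± 270 per kb in controls and 4251 ± 599 per kb in knockouts, with overlapping ranges (3242 to 3808 and 3681 to 4952). Igf1 over Igf2 per kb was 1.85 ± 0.60 in controls and 5.30 ± 2.59 in knockouts, with ranges of 1.27 to 2.51 and 2.48 to 9.82 that just overlap. The sum of binding proteins over the sum of ligands was 22.1 ± 6.45 and 15.2 ± 2.45, with overlapping ranges.

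**Figure D3:**
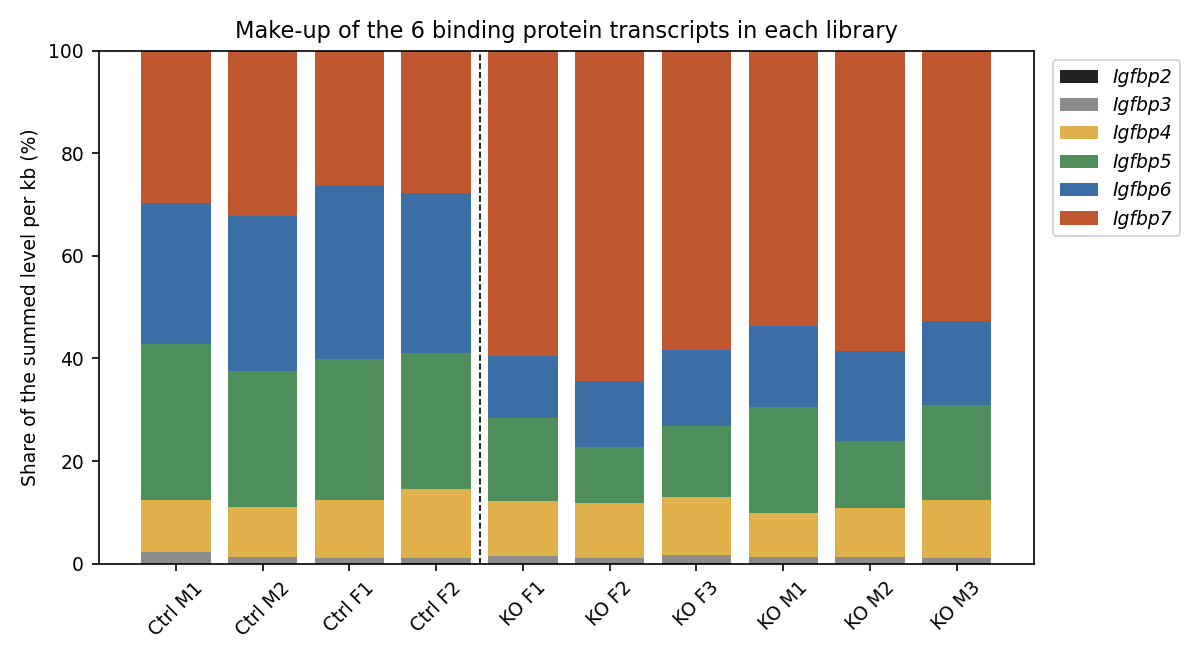
Share of each of the 6 binding protein genes in their summed level per kb, 1 bar per library, controls left of the dashed line. Igfbp7 takes 26.4% to 32.3% of the control bars and 52.6% to 64.3% of the knockout bars, and Igfbp2 is too low to be seen.

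Whether the genotype effect differed by labelled sex was tested with an interaction term, although the labels of the controls go against their sex-linked reads. None of the 9 genes was called (0 with edgeR's quasi-likelihood test and 0 with limma-voom, 1 with DESeq2), where edgeR called 0.205% of all tested genes. An unadjusted edgeR p below 0.05 was found for 3 of the 9, and for a smaller share of all tested genes (943 of 13191). The 9 were not tested as a set. For Igf1 the labelled-male effect exceeded the labelled-female effect by 1.35 ± 0.26 (SE) on the log2 scale (edgeR adjusted p = 0.0754). The adjusted p was 0.00151 with DESeq2, 0.00336 with no filter on low counts, 0.0323 without knockout F2 and 0.0177 without knockout M3. Over all alternatives it ran from 0.00151 to 0.456. Read by their sex-linked genes, the Y-positive controls held 1483 and 1278 Igf1 counts and the Xist-positive controls 723 and 727. The Y-positive knockouts held 3007, 2781 and 2154 and the Xist-positive knockouts 1695, 2515 and 1746. These are values of single libraries, and no test was made on groups read from the data.

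**Figure D4:**
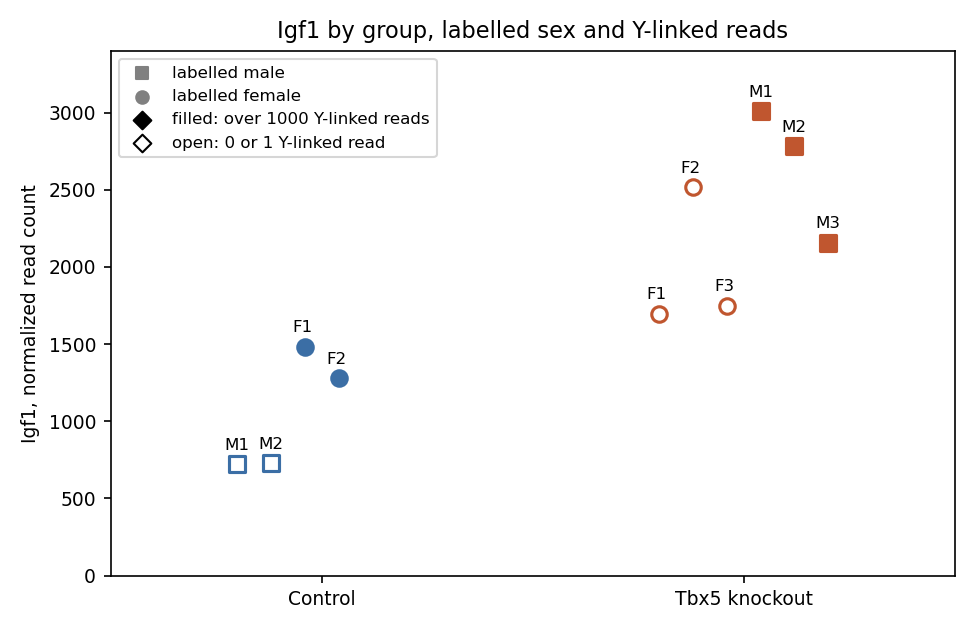
Normalized Igf1 count of every library by group, with the labelled sex as the shape of the point and filled points for libraries with over 1000 Y-linked reads. Filled controls (F1 and F2, 1483 and 1278) lie above open controls (M1 and M2, 723 and 727), and shape and filling go against each other in the 4 controls alone.

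Covariation among the members was described after subtracting each group's mean from the log2 CPM, over 10 libraries that differ in depth, and without tests. Over 36 pairs, r was highest for Igfbp5 with Igf2 (r = 0.76, rho = 0.30), Igf1r with Igf2 (r = 0.68) and Igfbp6 with Igf2 (r = 0.65). The first of these rested on knockout M1, the highest library for all 3 of Igf2, Igf1r and Igf1 and the highest knockout for Igfbp5. Without it r was 0.36 for Igfbp5 with Igf2 and 0.24 for Igf1r with Igf2, while Igfbp6 with Igf2 stayed at 0.64. For Igf1 and Igfbp7, which both rose between groups, r was -0.01 over the 10 libraries. That value pools groups with unlike patterns. Controls F1 and F2, with more Igf1 than M1 and M2, held less Igfbp7 (1064 and 1086 against 1170 and 1485 normalized counts). Knockouts M1, M2 and F2 had the highest counts of both genes among the knockouts.

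The genes most like each member within groups were read from 9570 genes in the same way. They are the highest of many r values over only 10 libraries, so a high r marks no link by itself. For every member tested the 3 nearest had r of 0.90 to 0.98, and whether any r exceeds what such a search gives by chance was not tested. For Igfbp7 they were the matrix genes Fbln2 (r = 0.98), Sparc (r = 0.96) and Col12a1 (r = 0.95). These genes also rose between groups, by 1.68 for Fbln2, 1.60 for Sparc and 3.30 for Col12a1 on the log2 scale (edgeR adjusted p of 4.91e-06, 9.01e-06 and 2.08e-06). For Igfbp6 they were Msln (r = 0.97), a marker of mesothelium, Itgb8 (r = 0.97) and Gpr126 (r = 0.95). Between groups Msln did not follow Igfbp6: its log2 fold change was 0.28 ± 0.13 (SE, edgeR adjusted p = 0.110). For Igf1 the nearest were Ltbp1 (r = 0.95), Bmper (r = 0.94) and Mst1r (r = 0.94), and their own log2 fold changes were 0.07, -0.41 and 0.15, none past the test. The nearest genes of Igfbp5 were Rasgrp3 (r = 0.95), Farp2 (r = 0.95) and Socs5 (r = 0.94). For Igf2 they were Cd47, Ywhab and Rel, for Igf1r Pprc1, Trpm4 and Pwwp2b, for Igf2r Rtn4, Ckap4 and Nif3l1, for Igfbp3 Slc25a22, Zfp518b and Cpt1a, and for Igfbp4 Jund, Nfe2l2 and Rps9. With the 2 libraries farthest from the median of the member left out, these r values ran down to 0.49, for Igf2r with Rtn4.

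Among 15 tested genes of other ligands, proteases, carriers and related proteins, 6 rose, 2 fell and 7 did not pass, with a median log2 fold change of 0.18. Over all tested genes 42.6% were called, 20.8% higher and 21.8% lower. The counts of this list and of those below are to be read beside these shares, and no list was tested as a set. Genes of secreted and membrane proteases were on both sides of the threshold, with Htra1, Htra3 and Pappa2 among those that did not pass. Adam12, a membrane protease of fibroblasts that cleaves IGFBP3 and IGFBP5, rose from 6.97 ± 1.93 to 49.6 ± 31.8 normalized counts (log2 2.78 ± 0.51 SE, edgeR adjusted p = 0.000671). Adamts1 rose from 505 ± 57.3 to 1915 ± 952 (log2 1.90 ± 0.30 SE, edgeR adjusted p = 0.000197). Pappa, whose product PAPP-A cleaves IGFBP4, rose from 58.0 ± 15.7 to 115 ± 47.8 (log2 0.97 ± 0.28 SE, edgeR adjusted p = 0.0124). Mmp14 (log2 0.83) and Mmp2 (log2 0.40), which encode matrix metalloproteases, and Crim1 (log2 0.65), which encodes a membrane protein with an IGFBP-like domain, rose too. Igfbpl1, a relative of the binding proteins, fell by 1.26 and Igf2bp3, which encodes an RNA-binding protein of IGF2 mRNA, by 0.76 on the log2 scale. The PAPP-A inhibitors Stc1 and Stc2 had log2 values of 0.05 and 0.63 and did not pass (edgeR adjusted p = 0.111 for Stc2). The insulin genes Ins1 and Ins2 and the protease gene Adam28 had no read in any library, and Igfbp1 and Igfals were below the filter.

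Growth hormone raises Igf1 through its receptor, JAK2 and STAT5, and SOCS proteins restrain this route. Of 11 tested genes of the route 2 rose, 4 fell and 5 did not pass, beside 42.6% of all tested genes called. Stat5b fell from 1268 ± 84.2 to 515 ± 57.8 normalized counts (log2 -1.33 ± 0.09 SE, edgeR adjusted p = 3.63e-07). Stat5a fell by 0.82 and Jak2 by 0.72 on the log2 scale. Prlr, the receptor of prolactin, fell from 157 ± 36.2 to 42.4 ± 7.30 (log2 -1.90 ± 0.17 SE, edgeR adjusted p = 2.57e-06). Socs2 rose from 706 ± 123 to 1172 ± 96.1 (log2 0.71) and Cish from 405 ± 135 to 686 ± 167 (log2 0.73), both known targets of STAT5. The receptor gene Ghr had 1870 ± 209 and 1951 ± 168 (log2 0.04 ± 0.10 SE, edgeR adjusted p = 0.794).

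Downstream of the receptor, 6 of 42 tested genes rose, 13 fell and 23 did not pass, with a median log2 fold change of -0.10. Over all tested genes 20.8% rose and 21.8% fell. The smallest adjusted p belonged to Grb10, an adaptor that restrains the receptor, which rose from 720 ± 39.6 to 1286 ± 116 normalized counts (log2 0.81 ± 0.09 SE, edgeR adjusted p = 1.25e-05). Rictor, a defining subunit of mTOR complex 2, fell from 551 ± 78.3 to 289 ± 34.7 (log2 -0.95 ± 0.11 SE, edgeR adjusted p = 2.35e-05). Gab1, a docking adaptor, fell by 0.69 on the log2 scale, Shc1, another adaptor, rose by 0.49, and Inppl1, a lipid phosphatase, fell by 0.56.

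Igf2 and Igf2r are imprinted, and of 15 tested imprinted or neighbouring genes 2 rose, 6 fell and 7 did not pass (median log2 fold change -0.07). The share called over all tested genes was 42.6%. H19, the untranslated RNA gene next to Igf2, fell from 690 ± 158 to 347 ± 98.7 normalized counts (log2 -1.02 ± 0.19 SE, edgeR adjusted p = 0.000665), while Igf2 itself did not pass. Peg3 fell from 1009 ± 127 to 312 ± 55.8 (log2 -1.72), Kcnq1ot1 by 0.61 and Zim1, a neighbour of Peg3, by 1.78 on the log2 scale. Grb10, named above, is the other of the 5 with the smallest adjusted p. Of 10 genes of mannose 6-phosphate sorting, 3 rose, 0 fell and 7 did not pass. Among those that rose were M6pr, the small mannose 6-phosphate receptor (log2 0.29), and Ctsb, which encodes a lysosomal protease (log2 0.37).

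**Figure D5:**
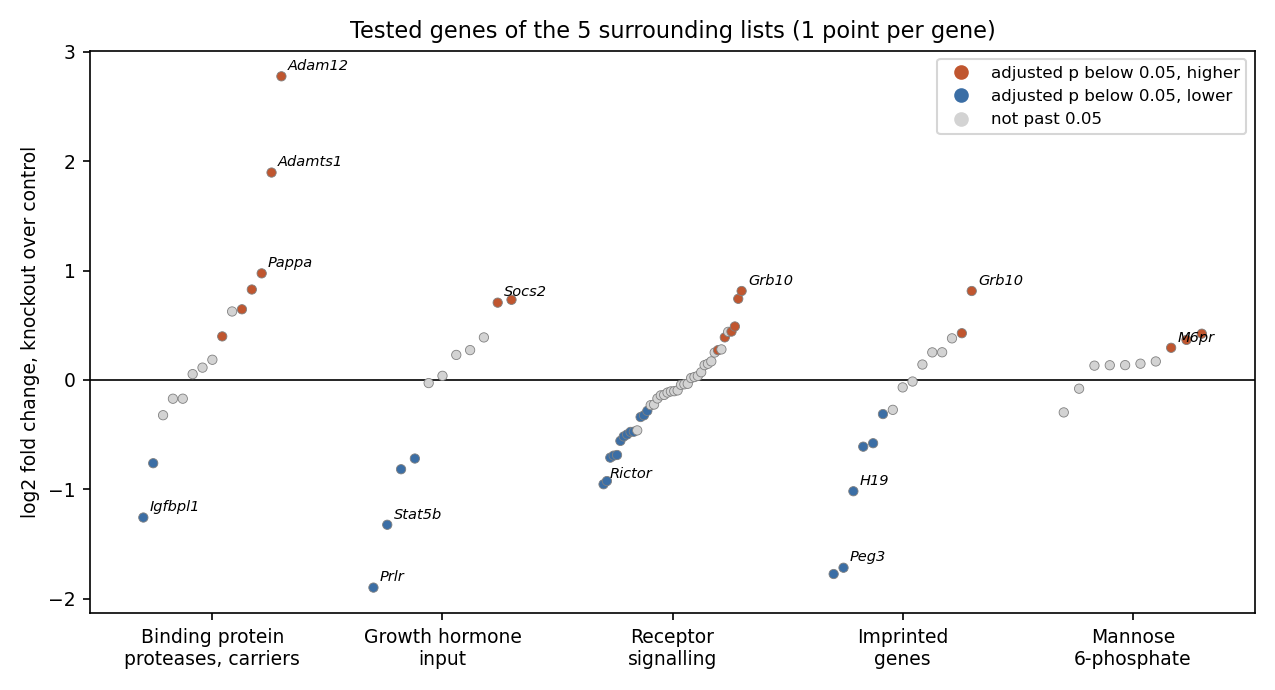
Log2 fold change, knockout over control, of every tested gene of the 5 lists around the axis, 1 point per gene in rising order within its list. Red points rose and blue points fell at an edgeR adjusted p of 0.05, from Adam12 at 2.78 to Prlr at -1.90.

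Markers of cell types were read from the same test, in which 42.6% of all tested genes were called. All 4 activated fibroblast markers rose, and their summed level was 3216 to 4868 normalized counts in controls and 12814 to 28223 in knockouts. All 7 macrophage markers in the table rose (summed level 3332 to 4453 and 6903 to 10547), as did all 4 markers of dividing cells (61.7 to 222 and 662 to 1751). Of 8 fibroblast markers 5 rose and 2 fell, Pdgfra by 0.54 and Gsn by 0.61 on the log2 scale, and the summed levels were 43878 to 47770 and 49021 to 61930. Among 7 vascular endothelial markers 3 rose and 1 fell (6649 to 7392 and 7675 to 8449), and of 7 smooth muscle and pericyte markers 4 rose and 1 fell (3312 to 3884 and 4243 to 5053). Endocardial markers were split, with 2 rising and 2 falling of 4 (8781 to 10046 and 11246 to 13974). None of the 5 epicardial and mesothelial markers passed edgeR's test, and their sums overlapped (2194 to 2902 and 2189 to 3397). Of 7 atrial cardiomyocyte markers 2 rose and 5 fell, and their summed level was 539169 to 601019 in controls and 258801 to 398650 in knockouts. Nppa and Myh6 had the highest means of the 7 in both groups. Myl7 fell the most, from 61119 ± 9804 to 3793 ± 1010 normalized counts (log2 -4.03 ± 0.19 SE, edgeR adjusted p = 1.68e-08). Each of the 7 had reads in every library. No marker of these lists was at 0 in all libraries. The part of these shifts in the changes of Igf1, Igfbp5, Igfbp6 and Igfbp7 was not tested.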

How the data were processed

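Left atrial RNA was sequenced as single-end reads in 4 control and 6 knockout libraries, after globin depletion. The labels' protocols name both an mRNA kit and ribosomal depletion. Reads went through FastQC, TopHat2 2.0.11 and featureCounts, with DESeq2 for the comparison and mm10 as the genome, per the submitters' processing notes. Annotation, strand setting and treatment of multimapping reads were not given in the sources used here. The authors deposited raw counts per gene, which were used as they stand, and a normalized signal, the count divided by a size factor, per the file headers. The log2 fold change, linear fold, Wald score, p-value and adjusted p-value deposited beside them are the authors' own comparison.

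Counts were tested with edgeR 4.0.16 in R 4.3.3 (filterByExpr, TMM scaling, quasi-likelihood F-test, Benjamini-Hochberg over 13191 genes), checked first on simulated data. The standard error was the absolute log2 fold change divided by the square root of F. Total counts of 5701670 to 7697556 limit genes with few reads. Positions and exon lengths came from GENCODE M21 and upstream sequences from RefSeq, with all 10 genes matched by symbol. No protein sequences were used here.

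The 10 genes, the lists and the tests were chosen with earlier results of these data known. Named genes are the 10, every passing gene of the protease and carrier list and the growth hormone list, up to 5 of each other list with the smallest adjusted p, and the 3 genes most correlated with each of the 10 (mean of at least 50 normalized counts). Of these, 1 is not reported here. Stc1, Stc2, Ghr, genes without reads, 2 fibroblast markers, the atrial marker Myl7 and the fold changes of some correlated genes were added after their values were seen. Alternatives were RLE, upper-quartile and library-size scaling, DESeq2 1.42.0, limma-voom from limma 3.58.1, other filters and thresholds, sex as a covariate, a replicate block, 1 labelled sex, and each library left out. Offsets for GC content and exon length, a fit without both control F1 and knockout M3, and the Igf2 spread without knockout M1, were added after seeing the data.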

Additional observations from a re-analysis of the deposited data

Results flagged for a closer look

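Igfbp5 in knockout M1 stood apart from the other knockouts. Its 5985 normalized counts lay above the next knockout, M3 at 4099, by a gap that Dixon's criterion for 6 samples marks, and within the range of the controls (5140 to 6099). Without this library the Igfbp5 log2 fold change was -0.68 (edgeR adjusted p = 0.000264), against -0.54 with it. The same library held the highest Igf2 (700), Igf1r (997) and Igf1 (3007) counts. Of 20 gene-by-group sets examined 1 was marked in this way, and chance marks about 1 in 20.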

How the results depend on the processing

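Igf1 and Igfbp7 kept their direction and passed the test under all 25 alternatives, with log2 fold changes of 0.50 to 1.86 and 1.03 to 1.44. Igfbp6 passed under 23 and Igfbp5 under 21. The number of genes called for genotype was 5622, and it was 1533 with an absolute log2 fold change above 1 and 2061 in labelled males alone. Of the 9 members 2 were called under each of these. Genes near no difference changed sign. Igf1r was 0.030 with upper-quartile scaling, 0.13 with library size only, 0.017 with no filter, 0.0032 in labelled males, 0.27 with GC and length offsets, 0.015 without control F1 and knockout M3, and -0.084 to 0.074 with single libraries left out. Igf2 was 0.076 with library size only, 0.43 in labelled males, 0.032 without control F1 and knockout M3, and -0.46 to 0.070 with single libraries left out. Igfbp3 was -0.24 in labelled males, -0.083 with the offsets and -0.016 to 0.33 with single libraries left out. For the difference between labelled sexes the count of 27 became 80 with DESeq2, 16 with limma-voom, 114 with no filter, 13 with at least 50 counts in 4 libraries, 14 without control F1 and knockout M3, and 7 (without control F2) to 77 (without knockout M3) with single libraries left out. In that difference Igf1r was -0.034 with upper-quartile scaling, -0.020 with library size only, -0.0069 with limma-voom, -0.013 with no filter, -0.078 with the offsets and -0.17 to 0.16 with single libraries left out, where Igf2r ran from -0.044 to 0.15. The cause of these changes was not tested. Deviations of same-numbered control and knockout libraries from their group means correlated at r from -0.13 to 0.17. For M1, F1 and F2 a knockout of another number correlated better with the control. For M2 the same number was highest (0.17 against 0.15). These values do not settle whether the numbers pair the animals, which the main fit took as unpaired. With a replicate block 5411 genes and 4 of the 9 members were called, and Igf1r was 0.014. Depth limited Igfbp2, with 16 reads in all.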

Other observations

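Socs2 and Cish rose while Stat5a, Stat5b and Jak2 fell, and Ghr did not pass the test. These genes belong to a route that feeds Igf1, and their values are given here with no test of their relation. H19 fell to 347 ± 98.7 normalized counts from 690 ± 158 while Igf2 had means of 325 and 315, with knockout libraries from 148 to 700.

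The sex labels of the controls and their sex-linked reads disagreed in 4 of 4 libraries, and in 0 of 6 knockouts. Control F1 and knockout M3 were the Y-positive libraries with over 100 Xist reads, 119 and 153. Leaving out both kept 4 of the 9 genes called.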
